A study of Caenorhabditis elegans with 45 samples.

Results

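G12U is a strain of the nematode Caenorhabditis elegans in which 1 nucleotide of the microRNA let-7 was changed, from G to U at position 12 counted from the 5′ end of the mature miRNA. Its members were taken from the sample labels, which place 3 of the 45 small RNA libraries of the study in this genotype. The study sequenced small RNA from whole animals of 15 genotypes with 3 libraries each, made up of wild type and 14 single-nucleotide let-7 mutants that together cover positions 9 to 22. G12U is set here mainly against wild type (WT), and also against 4 sets of mutants. These are G11U and U13A, which change the neighbouring positions, and G20C, which was chosen for its high let-7 level. The last set pools the other 5 strains whose genotype includes mnDp1 (G11U, U13A, U14A, G15A and U16G).

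The G12U strain is VT3825, with the genotype mnDp1(umnIs25) (X;V), +/+, maIs105 V and let-7(ma448) on X. The WT strain is VT1367, which carries maIs105 V, a GFP reporter of an adult skin collagen gene that G12U carries too. Embryos were freed from adults with bleach, hatched without food and then fed, and both strains were harvested as mid L4 larvae after 45 hours of feeding at 20 °C. Each library is a population of animals and each mutation is represented by 1 strain. G12U and WT also differ in mnDp1 and its umnIs25 insertion, so the base change and the duplication cannot be told apart in this comparison. As background, mnDp1 is a piece of the X chromosome attached to chromosome V that is used to cover lethal let-7 mutations with a wild-type copy of the gene.

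MicroRNAs are short RNAs that guide Argonaute proteins to messenger RNAs and lower their output, and they find their targets mainly through the seed near the 5′ end. let-7 rises late in larval life and represses lin-41, among other genes, so that skin cells leave the cell cycle and adopt adult fates. Its paralogs mir-48, mir-84 and mir-241 share its seed and act earlier, on hbl-1. Position 12 lies outside the seed, in the middle of the miRNA.

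In the WBcel235 annotation the let-7 gene lies on the minus strand of chromosome X at 14743590 to 14745321, where it overlaps the protein-coding gene C05G5.7 on the same strand and the non-coding RNA gene C05G5.8 on the opposite strand. The precursor spans 14744173 to 14744271 and the mature miRNA 14744234 to 14744255, inside that gene. The changed base is at 14744244. These positions were looked up by gene identifier, and the build used to make the deposited counts is not given in the sources used here.

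The 6 libraries of the main comparison were similar in the share of reads mapped but less so in depth, with WT replicate C the shallowest. The reads assigned to miRNA genes numbered 2100101, 2127862 and 1895121 in G12U replicates A, B and C, against 2158302, 1789409 and 1319030 in WT, within a range of 1009758 to 3574420 over all 45 libraries. The share of reads that mapped was 60.1% ± 1.49 in G12U and 60.9% ± 0.743 in WT (SD, n = 3 each). Of the 257 miRNA genes in the table, 61 were listed at 0 in all 45 libraries. Among these are lin-4, mir-1, which marks muscle, and mir-124, which marks neurons, so those tissues could not be checked with them. The cause of the zeros is not known. Totals, shares and ranks of miRNA reads given here therefore cover only the genes with listed reads. The neuronal miRNA lsy-6 had 27.9, 40.8 and 36.9 normalised counts per 1000000 (CPM) in G12U, against 27.8, 47.5 and 42.5 in WT. The embryonic and oocyte mir-35 family, summed, had 11729 to 13780 normalised CPM in G12U and 12521 to 13350 in WT. Of its 7 members tested, 4 had positive and 3 negative log2 fold changes, from -0.50 to 0.21. The larval miRNAs lin-58, mir-84, mir-241 and mir-237 were all present in both strains. Outside the main comparison, replicate B of the mutant U9G stood apart, with a correlation of 0.867 across miRNAs (log2 of CPM plus 1) to the median of the other libraries, where the lowest of the other 44 had 0.981. Because all libraries share 1 estimate of the spread, the main results against WT are also given without it.

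let-7 was more abundant in G12U than in WT, and most of it carried the mutation. The authors counted let-7 reads separately in a mutant and a wild-type form. The mutant form had 130580, 136857 and 110832 reads in the 3 G12U libraries. No mutant form was listed in the WT libraries, where 0 of 70780, 0 of 38505 and 0 of 35166 let-7 reads allow shares of up to 0.00424%, 0.00779% and 0.00853% for counting error alone, and the mutant form looked for in WT is not stated. The wild-type form had 16885, 18351 and 13866 reads in G12U, so it was present in every library of the mutant strain.

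The wild-type share of let-7 reads was 11.45% in G12U replicate A (95% Wilson interval 11.29% to 11.61%), 11.82% in B (11.66% to 11.99%) and 11.12% in C (10.95% to 11.30%). The mean share was 11.5% ± 0.352 (SD, n = 3), and the mutant form outnumbered the wild-type form between 7.458 and 7.993 times. The 3 shares lie close together but differ by more than the width of an interval between B and C. Intervals and limits of this kind cover counting error only, since the reads carry no molecular identifiers.

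Per 1000000 miRNA reads (RPM), the mutant form reached 62178, 64317 and 58483 in G12U, and the wild-type form 8040, 8624 and 7317. WT had 32794, 21518 and 26661 RPM of let-7, all in the wild-type form. Every G12U library therefore had more mutant let-7 than any WT library had let-7, and less wild-type let-7 than any of them. Both forms together averaged 69653 ± 3604 RPM in G12U, or 6.97% of the miRNA reads counted, against 26991 ± 5645 RPM in WT, or 2.70% (SD, n = 3 each). The ratio of these means was 2.581 for both forms together and 2.284 for the mutant form alone. The wild-type form in G12U came to 29.6% of the let-7 RPM in WT.

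**Figure D1:**
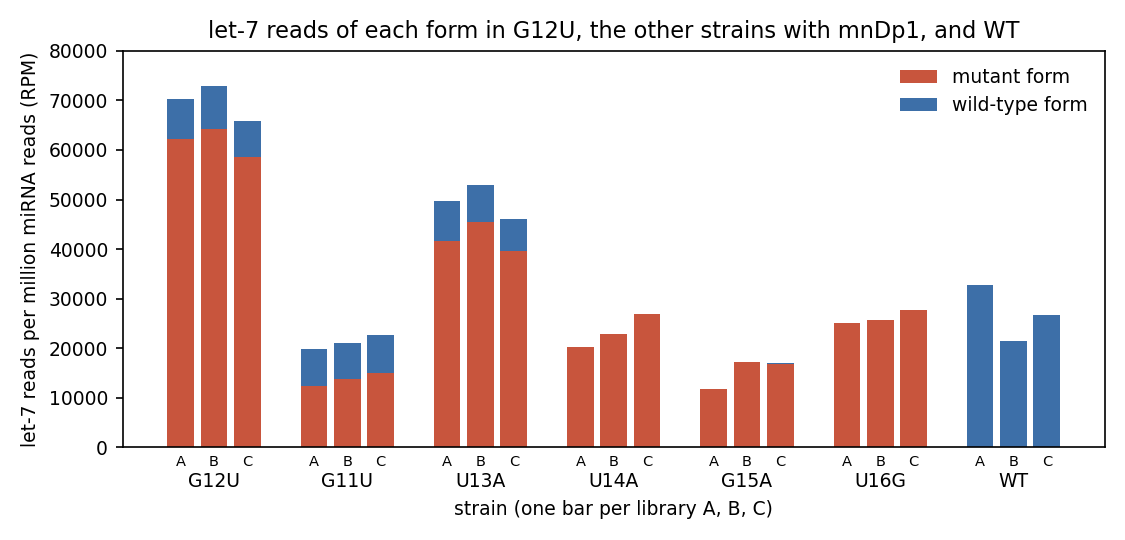
Reads of let-7 per 1000000 miRNA reads (RPM, vertical axis) in each library A, B and C of G12U, of the other 5 strains with mnDp1 and of WT, with the mutant form in red and the wild-type form stacked on it in blue. The 3 G12U libraries stand between 65799 and 72941 RPM for both forms together, above the 3 WT libraries at 21518 to 32794.

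In edgeR's quasi-likelihood test with Benjamini-Hochberg adjustment over the 130 miRNAs tested, the mutant form was higher in G12U than let-7 was in WT. It had 66344, 72496 and 57602 normalised CPM in G12U, against 35087, 21762 and 27661 in WT, with means of 65480 ± 7484 and 28170 ± 6677 (SD, n = 3 each). The log2 fold change was 1.22 ± 0.250 (SE, edgeR adjusted p = 0.003277), and 1.19 without U9G replicate B (adjusted p = 1.637e-05). An exact two-sided permutation test of these 3 against 3 libraries gave p = 0.1, the smallest it allows. The call rested in part on single WT libraries, since the fold change was 1.02 without WT replicate B (edgeR adjusted p = 0.145) and 1.17 without WT replicate C (edgeR adjusted p = 0.05195). When U9G replicate B was left out as well, both stayed past the threshold of 0.05, with edgeR adjusted p-values of 0.0009352 and 0.0003694.

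The wild-type form was lower in G12U than in WT. This direction was set in part by genotype, since let-7(ma448) on X encodes the mutant form. Counted alone, the wild-type form had 8459, 9863 and 7238 normalised CPM in G12U, against a mean of 28279 ± 6703 in WT (SD, n = 3). Its log2 fold change was -1.73 ± 0.255 (SE, edgeR adjusted p = 1.103e-05), and -1.75 without U9G replicate B (edgeR adjusted p = 5.659e-09). In these 2 fits, let-7 was counted as the wild-type form in G12U and WT, and as the encoded form in the other genotypes. The spread behind these p-values is therefore not that of the wild-type form alone. When the wild-type form was instead used as the let-7 count of every library, the fold change was -1.78 ± 0.499 and no longer passed (SE, edgeR adjusted p = 0.07328). Summed over both forms, let-7 rose to 73787 ± 8719 normalised CPM in G12U, against 28096 ± 6659 in WT (SD, n = 3 each), and the log2 fold change was 1.39 ± 0.250 (SE, edgeR adjusted p = 0.0004025), and 1.37 without U9G replicate B (edgeR adjusted p = 8.333e-07). The let-7 entry among the miRNA genes, counted apart from the 2 forms, gave 1.06 (edgeR adjusted p = 0.01404). That entry held on average 1.05 times the reads of both forms in G12U and 1.33 times in WT, so the 2 ways of counting let-7 do not relate alike in the 2 strains, and the fold change from this entry is the smaller one. In RNA from whole animals, a different number of cells making let-7 and a different amount per cell cannot be told apart.

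The level of mutant let-7 in G12U differed from that of some other mutants. Compared with the mean of the other 5 strains with mnDp1, the log2 fold change was 1.61 ± 0.171 (SE, edgeR adjusted p = 6.920e-09). Against G11U, which had 11168, 13440 and 14087 normalised CPM of its own mutant form, it was 2.34 ± 0.259 (SE, edgeR adjusted p = 1.773e-08). G11U changes the base next to position 12, also from G to U. The size of this difference depended on how let-7 was counted, and it was 1.896 ± 0.254 for both forms together (SE, edgeR adjusted p = 1.464e-06) and 3.05 ± 0.260 for the let-7 entry among the miRNA genes (SE, edgeR adjusted p = 2.188e-11). That entry held 1.05 times the reads of both forms in G12U and 0.473 times in G11U. Against U13A, on the other side, with 42049, 49421 and 38006 normalised CPM, it was 0.60 ± 0.247 (SE, edgeR adjusted p = 0.9982). The 3 G12U libraries lie above the 3 U13A libraries without overlap, yet the difference did not pass the threshold, which does not show that the levels are alike. Against G20C, a strain without mnDp1 in its label and with 90159, 85923 and 81475 normalised CPM, it was -0.39 ± 0.247 (SE, edgeR adjusted p = 0.9989). Here all 3 G12U libraries lie below the 3 G20C libraries, and again the missed threshold does not show that the levels are alike.

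The wild-type form of let-7 was present in G12U and in both neighbouring mutants, at levels whose ranges overlapped. It averaged 7994 ± 655 RPM in G12U, 7456 ± 178 RPM in G11U and 7331 ± 825 RPM in U13A (SD, n = 3 each). As a share of let-7 reads it was 11.5% in G12U, 35.2% in G11U and 14.8% in U13A, since the mutant forms differed in level. The other 3 strains labelled with mnDp1 had hardly any: 20.9 RPM in U14A, 46.3 RPM in G15A and 11.9 RPM in U16G, or 0.0881%, 0.293% and 0.0458% of their let-7 reads. G20C, whose label has no mnDp1, had 0.0926%. U21A and U22A, whose labels also lack mnDp1, had more: 6.75% to 7.76% in the U21A libraries and 21.3% to 22.3% in the U22A libraries. The share of reads of 1 form that this counting assigns to the other by error is not known. U14A, G15A, U16G and G20C show how small a listed share can be. In U9G, A10U, A17U, U18A and A19U, whose labels lack mnDp1 too, the shares of single libraries ran from 0.0140% to 0.561%. The reason for these shares was not tested.

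Apart from let-7, few miRNAs passed the threshold between G12U and WT, which does not show that the rest were alike. Of 129 other miRNAs tested, 1 passed the edgeR threshold of adjusted p under 0.05 (0.775%), higher in G12U. Without U9G replicate B, 3 of 133 passed (2.26%), all higher in G12U. Before adjustment, 6 miRNAs had p under 0.05, of which 4 were higher and 2 lower; leaving out U9G replicate B made this 12, with 7 higher and 5 lower. The median log2 fold change of the 129 was 0.04, with 72 of them positive. In 17 of the 129 (13.2%) the 3 libraries of G12U and the 3 of WT did not overlap, with G12U above in 9 and below in 8.

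**Figure D2:**
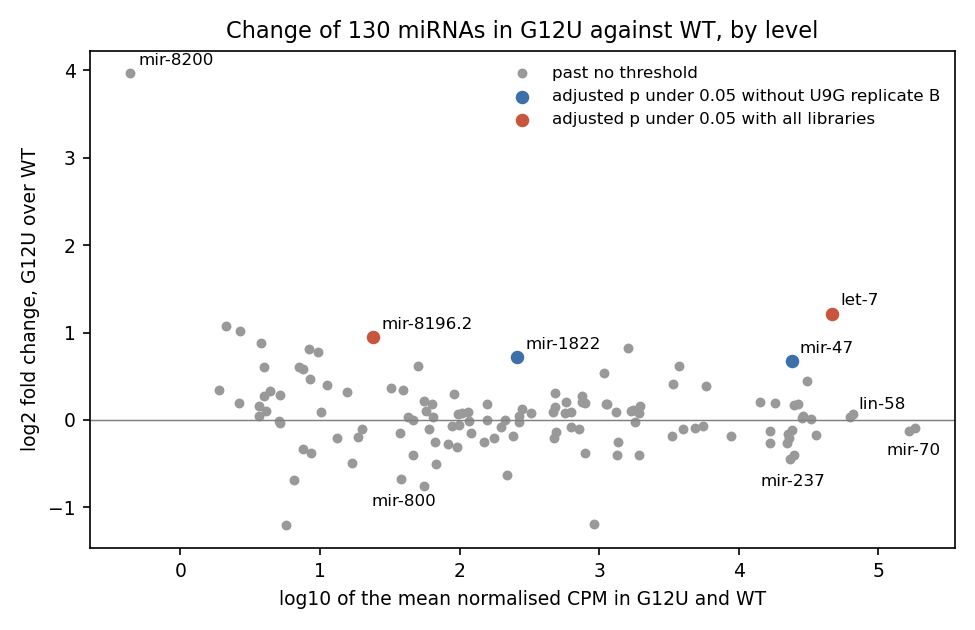
Log2 fold change of each of the 130 miRNAs tested, G12U over WT (vertical axis), against the log10 of its mean normalised CPM in both strains (horizontal axis). let-7 and mir-8196.2 (red) passed the edgeR threshold with all libraries, mir-47 and mir-1822 (blue) only without U9G replicate B, and mir-8200 at the top left rests on reads in 1 G12U library.

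That single miRNA, mir-8196.2, had 59, 52 and 72 reads in G12U and 34, 29 and 20 in WT. As normalised CPM these were 30.0, 27.5 and 37.4 in G12U, against 16.9, 16.4 and 15.7 in WT, so every G12U library was above every WT library. The log2 fold change was 0.95 ± 0.229 (SE, edgeR adjusted p = 0.01332). Its gene (WBcel235, X, 14324355 to 14324517, minus strand) is 419073 bases from let-7, inside the protein-coding gene prx-1, which runs on the opposite strand. It has a copy, mir-8196.1, listed at 0, so the split of reads between them is uncertain. The call was lost with DESeq2 (0.91, adjusted p = 0.05635), in edgeR fitted to the 6 libraries alone (adjusted p = 0.212), without G12U replicate C (0.76, adjusted p = 0.3677), and without WT replicate A, B or C (adjusted p = 0.08152, 0.145 and 0.141).

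mir-47 and mir-1822 passed only when U9G replicate B was left out. mir-47, an abundant miRNA whose gene is also near let-7, had 28171, 23651 and 36401 normalised CPM in G12U, against 14439, 21902 and 18871 in WT. Its log2 fold change was 0.68 ± 0.353 with all libraries (SE, edgeR adjusted p = 0.8031) and 0.67 without U9G replicate B (edgeR adjusted p = 0.01792). mir-1822, on chromosome II inside the gene ZK84.2 and on the same strand, had 255, 369 and 334 normalised CPM in G12U, against 157, 202 and 224 in WT. Its log2 fold change was 0.72 with all libraries (edgeR adjusted p = 0.2533) and 0.70 without U9G replicate B (edgeR adjusted p = 0.01792). For both miRNAs, all 3 G12U libraries were above all 3 WT libraries. Beyond U9G replicate B, mir-47 lost the call without G12U replicate C (0.45, edgeR adjusted p = 0.3298), WT replicate A or WT replicate C, and mir-1822 without G12U replicate B or C, or WT replicate A or B.

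Others among the smallest unadjusted p-values did not pass in either fit. mir-800 had 31.5, 26.5 and 29.6 normalised CPM in G12U, against 50.1, 46.3 and 43.3 in WT; its log2 fold change was -0.67 (edgeR adjusted p = 0.2895). mir-63 had 3540, 4269 and 3755 normalised CPM in G12U, against 2593, 2757 and 3345 in WT, and its log2 fold change was 0.41 (edgeR adjusted p = 0.8031). mir-244 had a log2 fold change of -0.37, mir-4920 of 0.81 and mir-229 of -0.25, and the edgeR adjusted p of each was 0.8031. The libraries of G12U and WT did not overlap for mir-800, mir-63, mir-244 or mir-4920. mir-784, with 68.1, 42.4 and 73.3 normalised CPM in G12U and 49.1, 35.04 and 35.4 in WT, had 0.62 (edgeR adjusted p = 0.9971). mir-2220, with at most 3.56 normalised CPM in any of the 6 libraries, had 1.08 ± 0.728 (SE).

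None of the 6 let-7 family members tested besides let-7 passed the threshold, with or without U9G replicate B, which is near the share over all miRNAs (0.775%, and 2.26% without U9G replicate B). Their log2 fold changes were positive in 4 and negative in 2, with a median of 0.06 beside 0.04 for all miRNAs. lin-58, the gene of mir-48, had 73666, 55892 and 59668 normalised CPM in G12U, against 72761, 62410 and 50345 in WT (log2 fold change 0.03 ± 0.475, SE). In G12U let-7 in its mutant form was thus about as abundant as lin-58, with means of 65480 and 63075 normalised CPM. In WT, let-7 with 28170 was below lin-58 with 61839. The levels of different miRNAs also carry differences in ligation and counting, so the order of 2 miRNAs within a strain is a description of reads.

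mir-84 and mir-241, which act with mir-48, overlapped between the strains. mir-84 averaged 15248 ± 2351 normalised CPM in G12U and 13267 ± 1942 in WT (log2 fold change 0.20), and mir-241 averaged 3113 ± 395 in G12U and 3542 ± 965 in WT (-0.19; SD, n = 3 each). mir-793 had 1430, 1222 and 1188 normalised CPM in G12U, against 988, 992 and 655 in WT. Its libraries did not overlap, and its log2 fold change was 0.54 ± 0.338 (SE, edgeR adjusted p = 0.9971; 0.09085 without U9G replicate B). The gene of mir-793 is 885537 bases from let-7. The low-abundance members mir-794 and mir-795, neighbours on chromosome I, had log2 fold changes of -0.0049 and 0.09.

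In the lin-4 family, which times the early larval stages, lin-4 itself was listed at 0 and mir-237 was measured. mir-237 had 17958, 23548 and 17798 normalised CPM in G12U, against 27809, 25307 and 27484 in WT. All 3 G12U libraries lie below the 3 WT libraries, replicate B least so, and the log2 fold change of -0.44 ± 0.199 did not pass (SE, edgeR adjusted p = 0.7195; 0.2383 without U9G replicate B).

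**Figure D3:**
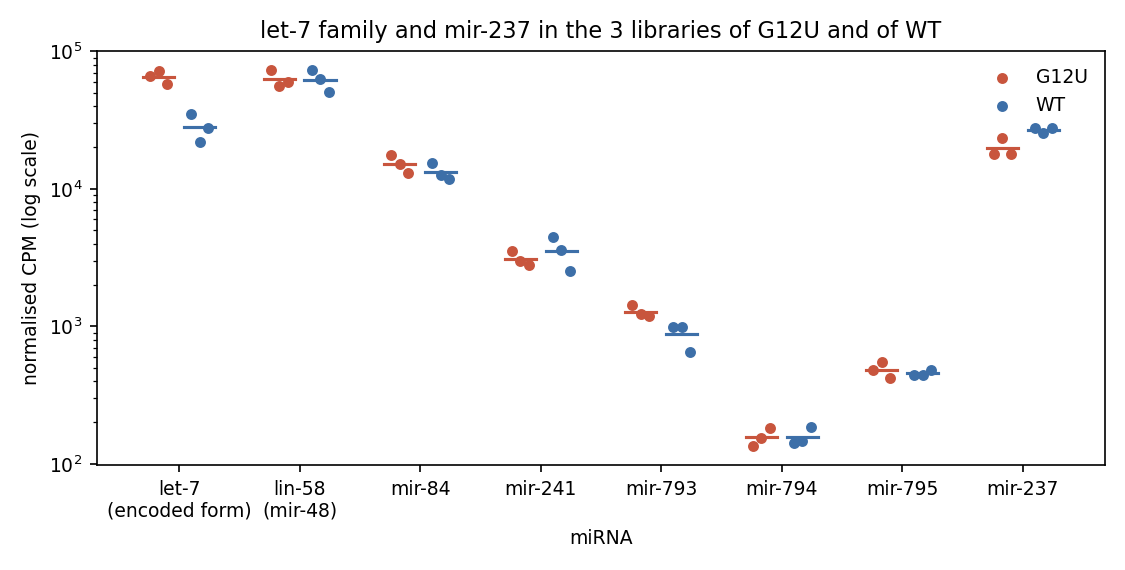
Normalised CPM (vertical axis, log scale) of let-7 in its encoded form, the other 6 let-7 family members and mir-237 in the 3 libraries of G12U (red) and of WT (blue), with the mean as a bar. let-7 stands apart between the strains, mir-793 and mir-237 do not overlap without passing the test, and the points of the other 5 overlap.

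The bantam-related miRNAs, a large family named for its fly relative, had 4 members tested and 0 called, again near the share of 0.775% over all miRNAs. mir-58.1 had a mean of 159205 ± 24330 normalised CPM in G12U and 173182 ± 29110 in WT (log2 fold change -0.12), and mir-82 of 67879 ± 12610 in G12U and 64572 ± 10710 in WT (0.07; SD, n = 3 each). mir-81 averaged 35348 ± 9868 normalised CPM in G12U and 25898 ± 3636 in WT (log2 fold change 0.45 ± 0.473, SE). mir-58.2, with 12, 8 and 9 reads in G12U and 10, 2 and 2 in WT, had 0.89 ± 0.902 (SE). mir-80 was listed at 0.

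Among the miRNAs with listed reads, mir-70 had the highest mean over the 6 libraries. It had 200615, 208866 and 127689 normalised CPM in G12U, against 203743, 200436 and 167086 in WT (log2 fold change -0.09). In replicate C of both strains mir-58.1 was higher, with 176344 normalised CPM in G12U and 206318 in WT. mir-72 averaged 33482 ± 1202 normalised CPM in G12U and 37802 ± 994 in WT (SD, n = 3 each), without overlap but with a log2 fold change of only -0.18 ± 0.210 (SE, edgeR adjusted p = 0.9971). mir-51 spread widely within G12U, with 27911, 53897 and 17885 normalised CPM, against 36070, 29420 and 33642 in WT (log2 fold change 0.01). mir-228 and mir-66 had log2 fold changes of 0.04 and 0.03. Of the 10 most abundant miRNAs over the 6 libraries, let-7 was the only one past the edgeR threshold with all libraries.

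The miRNAs encoded near let-7 all had positive log2 fold changes in G12U, most of them without passing the test. Within 1000000 bases of let-7, a list chosen with earlier results of these data known, the annotation places 10 other miRNA genes of the table. F39B1.3, mir-5592.1 and mir-5592.2 were listed at 0 in the 6 libraries, and the other 7 were tested. All 7 log2 fold changes were positive, from 0.21 to 0.95, and 1 passed the edgeR threshold (2 without U9G replicate B), where 1 of all 129 passed (3 of 133 without U9G replicate B). Their median was 0.54, and 0.52 without U9G replicate B. The 41 miRNAs tested elsewhere on chromosome X had a median of 0.07, with 22 positive, and the 81 on other chromosomes 0.03, with 43 positive. G12U and WT did not overlap in 5 of the 7, with G12U above each time, beside 17 of all 129 (13.2%). Among the 41 farther away on chromosome X, G12U was above in 1 and below in 2, and among the 81 on other chromosomes above in 3 and below in 6.

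Besides mir-8196.2, mir-47 and mir-793, given above, these are mir-4812 and the 3 copies of mir-1829. mir-1829.1, inside gas-1 and 842990 bases from let-7, had 564, 515 and 510 normalised CPM in G12U, against 417, 431 and 440 in WT, and its log2 fold change was 0.30 ± 0.129 (SE, edgeR adjusted p = 0.6513). mir-1829.2, inside F20D1.3 and 231798 bases away, had 26, 21 and 23 reads in G12U and 12, 12 and 11 in WT, with a log2 fold change of 0.78 ± 0.576 (SE). mir-1829.3 and mir-4812, both inside piki-1, had 0.21 ± 0.300 and 0.40 ± 0.374 (SE), and their libraries overlapped. All 4 lie on the strand of the gene around them. The mir-1829 copies are named as 1 family, so reads may have been split among them.

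**Figure D4:**
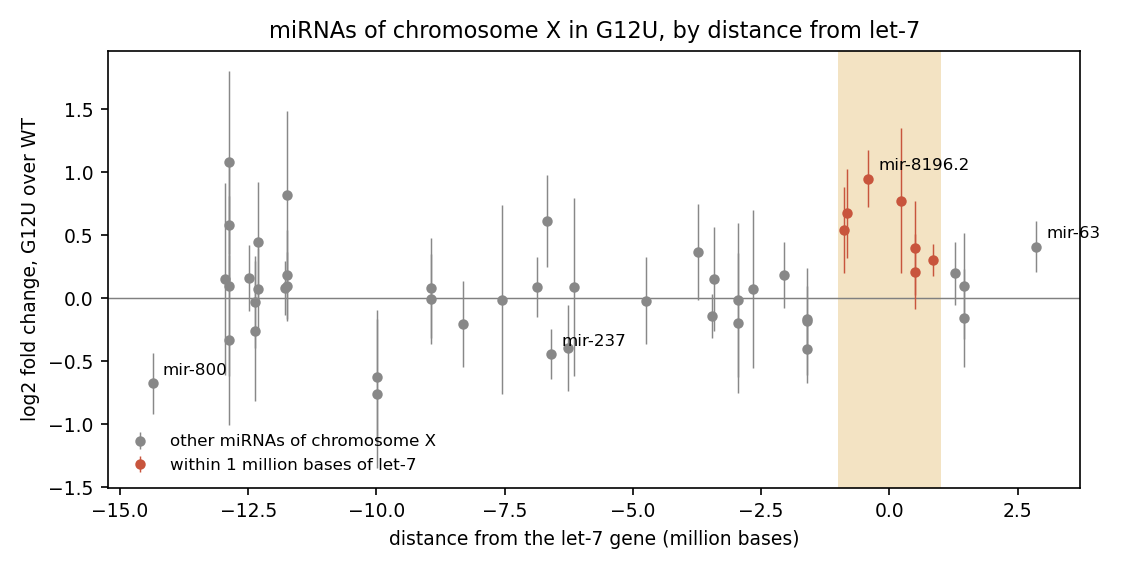
Log2 fold change of the miRNAs of chromosome X other than let-7, G12U over WT (vertical axis, bars are ± SE), against distance from the let-7 gene (horizontal axis, in units of 1000000 bases). The 7 miRNAs within 1000000 bases (red, shaded) run from 0.21 to 0.95, while the 41 farther away (grey) lie on both sides of 0.

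The same 7 miRNAs can be set side by side in the 6 strains with mnDp1, which are all measured against the same 3 WT libraries. Their median log2 fold change over WT was 0.54 in G12U, 0.54 in G11U, 0.55 in U13A, 0.04 in U14A, -0.29 in G15A and 0.06 in U16G. The number with a positive value was 7 of 7 in G12U, G11U and U13A, 4 in U14A, 3 in G15A and 4 in U16G. The wild-type form of let-7 was at 7994, 7456 and 7331 RPM in G12U, G11U and U13A, and at 46.3 RPM or less in the other 3. The part of mnDp1 in the levels of these 7 miRNAs was not tested. The median of all 129 miRNAs was between -0.02 and 0.04 in each of the 6 strains. For mir-8196.2 the log2 fold changes over WT were 0.95 in G12U, 1.13 in G11U, 0.85 in U13A, 0.40 in U14A, 0.23 in G15A and 0.06 in U16G. For mir-47 they were 0.68 in G12U, 0.60 in G11U, 0.70 in U13A, 0.14 in U14A, 0.07 in G15A and 0.15 in U16G.

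**Figure D5:**
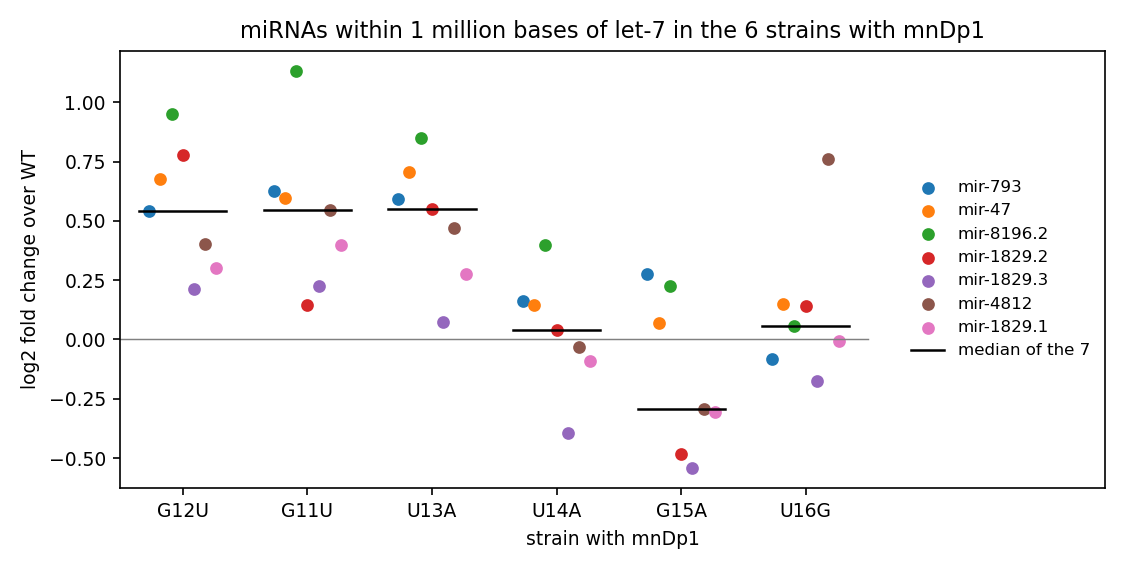
Log2 fold change over WT (vertical axis) of the 7 miRNAs within 1000000 bases of let-7 in the 6 strains with mnDp1, with 1 colour per miRNA and a black bar at their median. The medians are 0.54, 0.54 and 0.55 in G12U, G11U and U13A, and between -0.29 and 0.06 in U14A, G15A and U16G; all strains share the WT libraries.

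Direct comparisons of G12U with other mutants gave no other miRNA past the threshold in edgeR, with or without U9G replicate B (0 of 129, or 0%, in each). Against the other 5 strains with mnDp1, 4 were under 0.05 before adjustment, and 9 with U9G replicate B left out. The smallest p-values were those of mir-1829.1 (log2 fold change 0.25), mir-8196.2 (0.42) and mir-63 (0.35), each with an edgeR adjusted p of 0.7316. The same 3 fold changes, in that order, were -0.10, -0.18 and 0.15 against G11U, and 0.03, 0.10 and 0.19 against U13A. In edgeR fitted to the 6 strains with mnDp1 alone, 1 miRNA passed, mir-788, lower in G12U (-0.63, adjusted p = 0.04094). Against G20C, 4 were under 0.05 before adjustment, or 12 with U9G replicate B left out, led by mir-8196.2 with 17.8 normalised CPM in G20C (log2 fold change 0.83, edgeR adjusted p = 0.1054), mir-8212 (1.76, edgeR adjusted p = 0.1876) and mir-63 (0.57, edgeR adjusted p = 0.2607). Against U13A none (0) were under 0.05 before adjustment in either fit, and against G11U 0, or 3 with U9G replicate B left out. DESeq2 also called 0 in the comparisons with the other 5 strains with mnDp1, G11U, U13A and G20C. The smallest unadjusted p-values against G11U were those of mir-358 (0.42), mir-4936 (0.73) and mir-262 (0.71). Against U13A they were those of mir-355 (-0.62), mir-8212 (0.77) and lsy-6 (-0.35).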

How the data were processed

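The authors deposited read counts per miRNA gene for 45 small RNA libraries and, in a second table, counts of all, mapped and miRNA reads and of let-7 reads in a wild-type and a mutant form. Per the submitters' processing notes, cutadapt 1.9, Bowtie2 2.3.4.3, Subread 1.6.2 and featureCounts were used, with no role stated; the build and how reads were assigned to a form are not given in the sources used here. Libraries were made with a ligation-based small RNA kit, per the labels' protocols. RPM were computed from the deposited counts over the summed miRNA counts. The listed miRNA total differed from that sum in 1 of 45 libraries, none of them in G12U or WT.

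For let-7, the form that a genotype encodes was used in place of the gene's own entry, unless another count is named. Tests of the wild-type form used its count in G12U and WT and the encoded form elsewhere. Tests of both forms used their sum in every library. edgeR 4.0.16 (R 4.3.3) was run on the counts with its quasi-likelihood test, TMM scaling and filterByExpr. The fit covered all 45 libraries and had a coefficient for each genotype. P-values were adjusted by Benjamini-Hochberg over all miRNAs tested, with a threshold of 0.05. Standard errors came from the F statistic. DESeq2 1.42.0, other scalings and filters, fewer libraries, the replicate letter as a block and each library left out in turn were alternatives; leaving out libraries together with U9G replicate B was added after the data were seen. The scripts were tested on simulated data.

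Deviations from the group means correlated between libraries of the same letter for A (r = 0.493) and B (0.293), and only weakly for C (0.107). Each G12U library correlated best with the WT library of its letter (3 of 3), so the letters met the rule for pairing. The tests reported do not use the letters, and the replicate block is an alternative. The labels do not say what a letter marks. Each replicate is a separate library, and whether these came from separate cultures is not stated, so p-values measure the spread between libraries. Replicates differed by far more than sampling noise, and none were merged.

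The members, gene lists and tests were chosen with earlier results of these data known. Named miRNAs are let-7, those past the threshold with or without U9G replicate B, the 10 others with the smallest p, the 10 most abundant, the let-7, lin-4 and bantam-related families, those within 1000000 bases of let-7, and up to 3 with the smallest p in each direct contrast. mir-788 and mir-8200 were named after their values were seen.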

Additional observations from a re-analysis of the deposited data

Results flagged for a closer look

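The change of let-7 in its mutant form differed between G12U and some other strains measured against the same WT libraries, by direct contrasts in edgeR. The change in G12U minus the mean change in the other 5 strains with mnDp1 was 1.606 on the log2 scale (SE 0.171, adjusted p = 6.920e-09). The change in G12U minus that in G11U was 2.344 (SE 0.259, adjusted p = 1.773e-08). All 3 G12U libraries were above all 3 G11U libraries.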

How the results depend on the processing

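let-7 against WT kept its direction under every alternative run: 1.02 to 1.43 for the mutant form, -1.92 to -1.50 for the wild-type form and 1.204 to 1.586 for both forms (log2, G12U over WT). With each G12U or WT library left out in turn, with or without U9G replicate B, the mutant form ran from 1.016 to 1.431. It lost its call in 2 of these runs, without WT replicate B and without WT replicate C, both with U9G replicate B kept. With the wild-type form in every library, its fold change was -1.779 (edgeR adjusted p = 0.07328); the cause was not tested. With the replicate block the 3 values were 1.198, -1.753 and 1.375, and the block changed no call. It did lower the edgeR adjusted p of other miRNAs, from 0.2533 to 0.063 for mir-1822 and from 0.8031 to 0.339 for mir-63. Besides let-7, mir-8196.2 stayed the only miRNA called with it (edgeR adjusted p = 0.0115).

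The count of other miRNAs past the threshold against WT was 1. It was 0 with DESeq2 and in the fit of the 6 libraries alone, 3 without U9G replicate B, and 2 (mir-8196.2 and mir-1829.1) with the other 13 mutants as the reference. With each G12U or WT library left out, with or without U9G replicate B, it ran from 0 to 3. Against the other 5 strains with mnDp1 the count was 0, and 1 in the fit of the libraries compared alone; with each library of the 6 strains left out it was 0, and the let-7 fold change ran from 1.556 to 1.645. Leaving out libraries of the other 5 strains, and counting both forms or the let-7 entry in contrasts with mutants, were added after the data were seen. Given as RPM, the wild-type form in G12U was 7994 in place of a share of 11.46%, a change of unit. None of the 311 recomputed values with a direction reversed. Depth limits the shallow miRNAs, such as mir-8196.2, mir-58.2, mir-1829.2, mir-4812, mir-4920, mir-2220, mir-8212, mir-4936, mir-262 and lsy-6, each under 100 reads in each of these 6 libraries.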
